A study of Mus musculus with 14 samples.

Results

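The genes examined were the mouse heat shock and chaperone genes: protein-coding genes whose symbols begin with Hsp90, Hspa, Hspb, Hspd, Hspe, Hsph, Dnaja, Dnajb or Dnajc, or with Cct and a number. The rule took 83 of the 21900 protein-coding genes in the deposited gene table. Of these 83 genes, 78 had at least 1 summit of H3K4me3 between 2000 bp before the gene and 2000 bp after it, and each was represented by its strongest summit, the one with the highest mean over 13 libraries. All 78 passed the filter on low values, and because some members share a summit they stood on 76 distinct summits of the 153207 in the series. No summit lay in that span for Cct8l1, Dnajb13, Dnajb7, Dnajb8 or Dnajc5g.

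H3K4me3, trimethylated lysine 4 of histone H3, was measured by chromatin immunoprecipitation and sequencing. The mice were adult C57BL/6J males of 10 to 12 weeks, and the tissue was prefrontal cortex. The 5 SDS10 libraries came from mice defeated by an unfamiliar CD1 aggressor every day for 10 days, 5 SDS30 libraries from mice defeated for 30 days, and 3 control libraries from mice kept in divided cages that met no aggressor. Defeated mice lived beside an aggressor behind a perforated barrier between encounters, and they were killed 24 hours after the final encounter, shortly after tests of behaviour in the defeated groups. Chromatin was cut with micrococcal nuclease, so fragments were about the size of a single nucleosome. The cortex was used whole, so a smaller share of cells of a type that carries the mark and less of the mark per cell cannot be told apart. The labels do not say that replicates were separate animals, and p-values then measure only the spread between these libraries.

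Chaperones bind unfolded or partly folded proteins and help them fold, refold or reach their place in the cell. Hsp70 proteins (Hspa genes) act with J-domain partners (Dnaja, Dnajb and Dnajc genes), which bring clients and drive ATP hydrolysis; Hsp90 proteins mature kinases and steroid receptors, the Cct subunits form the ring-shaped cytosolic chaperonin that folds actin and tubulin, and small heat shock proteins (Hspb genes) hold aggregating proteins. Heat shock factor 1 switches on the inducible members by binding heat shock elements in their promoters, members of the endoplasmic reticulum answer to a separate stress element, and many others are expressed in every cell; H3K4me3 marks the nucleosomes around the starts of active genes and of many genes rich in CpG dinucleotides.

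RefSeq promoter windows (GRCm38.p6, 250 bases before to 50 after the annotated start, read on the strand of the gene) were found for 68 of the 83 members. They are shown here for the well-known members that hold a stress motif, apart from Hspd1, whose window shares 285 bases with that of Hspe1. Hspa1a, the classical inducible Hsp70 gene, holds no match to the stress motifs searched and was added after its values were seen. Start profiles of the genes shown were also drawn. The heat shock element searched was GAA, any 2 bases, TTC, any 2 bases and GAA; the endoplasmic reticulum stress element was CCAAT and CCACG with any 9 bases between them. Both were searched on both strands, and capitals mark the matches. A CCAAT box match lies inside each match of the second motif, and the run of capitals in Hspe1 is 2 heat shock element matches that overlap. The windows are chr2:34771840-34772139 on the plus strand for Hspa5, chr10:86705395-86705694 on the minus strand for Hsp90b1, chr1:55087898-55088197 on the plus strand for Hspe1, chr5:149636266-149636565 on the minus strand for Hsph1 and chr17:34972107-34972406 on the minus strand for Hspa1a.
Hspa5: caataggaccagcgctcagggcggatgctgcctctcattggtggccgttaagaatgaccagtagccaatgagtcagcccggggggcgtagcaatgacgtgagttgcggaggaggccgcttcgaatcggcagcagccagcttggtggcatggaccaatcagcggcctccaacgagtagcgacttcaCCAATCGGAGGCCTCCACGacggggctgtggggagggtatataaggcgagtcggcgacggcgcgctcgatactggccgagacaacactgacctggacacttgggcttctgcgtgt
Hsp90b1: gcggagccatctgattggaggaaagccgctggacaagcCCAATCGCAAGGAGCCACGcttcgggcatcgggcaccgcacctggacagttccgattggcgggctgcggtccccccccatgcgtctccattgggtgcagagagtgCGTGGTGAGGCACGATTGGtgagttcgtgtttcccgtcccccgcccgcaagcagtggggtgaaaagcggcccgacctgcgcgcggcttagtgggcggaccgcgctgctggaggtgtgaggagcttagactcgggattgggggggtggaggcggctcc
Hspe1: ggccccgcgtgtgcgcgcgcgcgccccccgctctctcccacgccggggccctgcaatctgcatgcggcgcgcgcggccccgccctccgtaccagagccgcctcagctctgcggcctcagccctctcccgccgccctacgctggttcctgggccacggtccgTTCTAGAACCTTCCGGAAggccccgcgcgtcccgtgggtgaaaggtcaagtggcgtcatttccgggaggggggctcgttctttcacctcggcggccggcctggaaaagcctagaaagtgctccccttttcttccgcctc
Hsph1: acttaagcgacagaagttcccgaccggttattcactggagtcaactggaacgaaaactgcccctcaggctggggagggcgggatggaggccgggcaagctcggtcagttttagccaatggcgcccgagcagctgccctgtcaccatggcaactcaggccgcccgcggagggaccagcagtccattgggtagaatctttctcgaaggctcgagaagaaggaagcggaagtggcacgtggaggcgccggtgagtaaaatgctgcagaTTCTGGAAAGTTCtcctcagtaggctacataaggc
Hspa1a: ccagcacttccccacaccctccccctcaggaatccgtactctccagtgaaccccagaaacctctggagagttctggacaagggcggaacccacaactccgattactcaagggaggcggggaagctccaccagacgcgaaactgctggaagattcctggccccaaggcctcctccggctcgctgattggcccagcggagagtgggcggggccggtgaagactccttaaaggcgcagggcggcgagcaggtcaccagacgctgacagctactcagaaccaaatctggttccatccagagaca

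The heat shock element was found in the windows of 4 of 68 members (5.88%), namely Dnajb6, Hspd1, Hspe1 and Hsph1, and in 0.595% of the 17492 protein-coding genes with a window. Hspd1 and Hspe1 are the mitochondrial chaperonin and its co-chaperonin, transcribed away from each other from a common region, and their windows share 285 bases, so their matches are the same bases. In Dnajb6, a J-domain protein that holds back aggregation of polyglutamine proteins, the match was GAATCTTCCGGAA. The endoplasmic reticulum stress element was found in 3 members (4.41%) against 0.166% of all coding genes: in Hspa5, the main Hsp70 of the endoplasmic reticulum, in Dnajc3, its J-domain partner, and in 2 places in Hsp90b1, the Hsp90 of that compartment. The match in Dnajc3 was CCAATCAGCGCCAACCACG. The shorter motif TATAAA was found in 4 members (5.88%, against 14.8% of all coding genes) and CCAAT in 29 members (42.6%, against 42.3%). These matches describe letters in the windows and not bound sites. Only exact matches were counted, so a window without a match is not shown to lack an element. No window was matched for 15 members, among them Hspa8, Hspa9, Hsp90aa1, Hsp90ab1 and Dnajc5.

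In control cortex the members carried more H3K4me3 at their strongest summit than coding genes in general. The median over the 78 members of the mean of 3 control libraries was 118 normalised reads, against 98.8 over the 15248 coding genes with a summit, and 52 of the 78 members (66.7%) lay above that gene median. The values are read counts under a summit divided by a size factor of the library, and are not per unit of length. Read library by library, the median over members was 115 ± 6.15 in SDS10, 106 ± 5.89 in SDS30 and 110.5 ± 2.55 in control (SD, n = 5, 5 and 3). Each group median of the members lay above that of all coding genes, which was 98.0 ± 5.65 in SDS10, 91.6 ± 5.03 in SDS30 and 97.1 ± 0.784 in control.

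**Figure D1:**
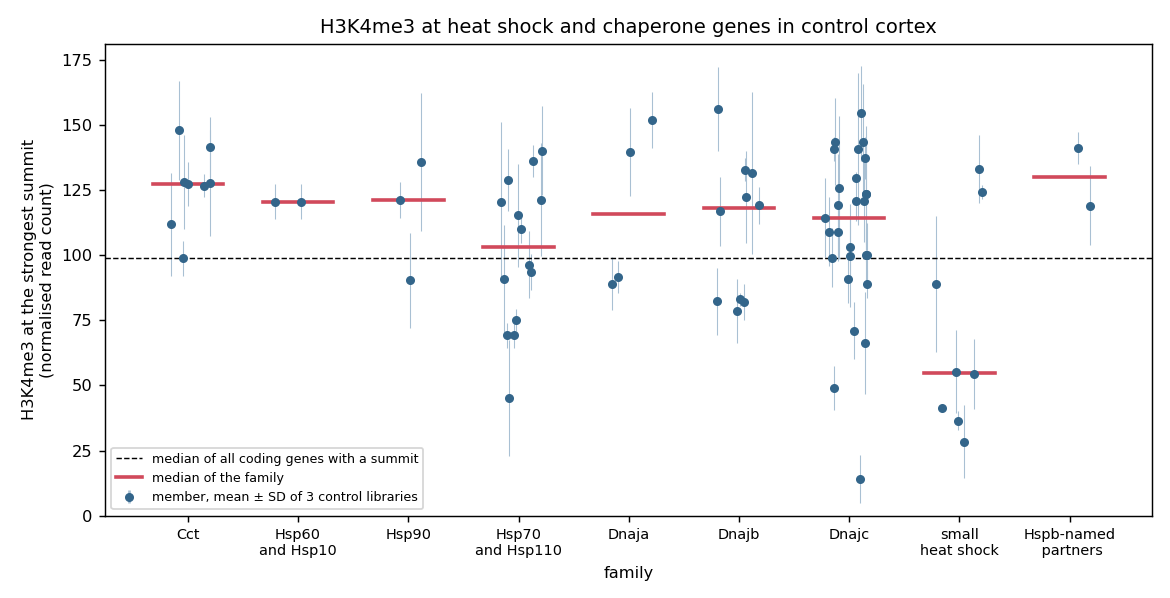
Control H3K4me3 at the strongest summit of each member by family, in normalised read counts; points are means of 3 control libraries, thin bars their SD, red lines family medians and the dashed line the median of all coding genes with a summit. The Cct genes lie on or above the dashed line at 98.8, and 6 of the 8 small heat shock genes lie below it.

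The families differed in level. All 8 Cct genes with a summit lay above the gene median, with a family median of 128 in control and a range of 98.9 to 148. The 3 Hsp90 genes had a median of 121, the Dnajb genes 118 (10 genes), the Dnaja genes 116 (4 genes), the Dnajc genes 114 (27 genes) and the Hsp70 and Hsp110 genes 103 (14 genes). The 8 genes with Hspb and a number, grouped here by name as small heat shock genes, had a median of 54.9, and 6 of them lay below the gene median. The name Hspb11 belongs to an intraflagellar transport protein and not to a small heat shock protein, and without it the median is that of Hspb1, 54.5. Hspb11 and Hspb6 had 124 and 133 in control and were singled out after their values were seen. Of the 8 genes, 4 share their summit with a neighbouring coding gene: Hspb11 with Lrrc42, Hspb6 with Proser3, Hspb9 with Kat2a and Hspb2 with Cryab. Hspb9 had 89.0 at that summit and 21.996 at its strongest summit within 1 kb of an annotated start. Hspbp1, an exchange factor of Hsp70, and Hspbap1, which binds Hspb1, match the rule by the letters of their symbols. They are not small heat shock proteins, and had 119 and 141 in control. Their summits are shared with Ppp6r1 and Slc49a4 and lay nearer to the starts of those genes. Within 1 kb of their own starts the strongest summits had 108 and 123.

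The highest control levels among members were those of Dnajb6 (156 ± 16.2), Dnajc15 (155 ± 18.2), which works in mitochondrial import, Dnaja3 (152 ± 10.7), a mitochondrial J-domain protein, Cct6a (148 ± 18.96) and Dnajc8 (144 ± 16.7), all as SD over 3 libraries. The lowest were Dnajc5b (14.0 ± 9.19), Hspb8 (28.4 ± 14.1), a small heat shock protein that works with Bag3 in selective autophagy, Hspb3 (36.5 ± 3.64), Hspb2 (41.3 ± 0.551) and Hspa12b (45.2 ± 22.1). Hspb2 lies head to head with Cryab, the gene of alpha B crystallin, and both have the same strongest summit. Dnajc5b had a single summit, with 3.44 normalised reads in control replicate 3 and 33.9 in SDS10 replicate 2, and it also varied most among members (SD of log2 over 13 libraries 0.69). Dnajb1, the inducible J-domain partner of Hsp70, varied least (0.11). Its values were 128, 131, 119, 122 and 131 in SDS10, 109.6, 112, 130.4, 115 and 126 in SDS30, and 109.7, 132 and 109 in control, and all 3 groups overlapped. The median of this SD over members was 0.22, and over coding genes 0.24.

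The well-known members lay at different levels, but these did not separate housekeeping from inducible genes. In control, inducible members lay both above and below constitutive ones. Hspa8, the constitutive cytosolic Hsp70 that also uncoats clathrin vesicles, had 129.6, 116, 113, 139 and 91.1 in SDS10, 111, 134, 123, 149.7 and 110.1 in SDS30, and 135, 96.4 and 133 in control. Hspa5 had 152, 159.5, 126, 147 and 137 in SDS10, 117, 129.6, 134, 145 and 117 in SDS30, and 138, 124 and 158 in control. Hspb1, the inducible small heat shock protein, had 56.6, 36.7, 40.5, 50.8 and 48.0 in SDS10, 38.4, 46.9, 45.2, 50.5 and 52.2 in SDS30, and 61.5, 39.1 and 63.0 in control. In each of these 3 genes the groups overlapped. Hsp90aa1, the inducible cytosolic Hsp90, averaged 123 ± 5.74 in SDS10, 127 ± 24.2 in SDS30 and 136 ± 26.6 in control, while Hsp90ab1, the constitutive form, averaged 106 ± 11.4, 84.0 ± 13.8 and 90.4 ± 18.3 in the same groups (SD, n = 5, 5 and 3). Among the J-domain genes of the synapse, Dnajc5, which encodes the cysteine string protein of synaptic vesicles, averaged 122 ± 9.35 in SDS10, 116 ± 20.1 in SDS30 and 121 ± 7.63 in control. Dnajc6, which encodes auxilin, the neuronal partner of Hspa8 in clathrin uncoating, averaged 72.4 ± 26.6, 55.3 ± 16 and 66.3 ± 19.6 in the same groups.

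The summit of a member usually lay just inside the gene. For the 63 members with a summit and a RefSeq start, the median distance of the summit from the start was 141 bp downstream, with 42 of them between the start and 500 bp downstream, 16 upstream and 6 more than 1000 bp away. Of the 78 members, 29 share their strongest summit with another coding gene, so the signal cannot be assigned to either gene; Hspd1 with Hspe1 and Hspa1a with Hspa1l are the pairs within the set. The summit of 5 members, Dnajc12, Dnajc18, Dnajc25, Dnajc5 and Dnajc5b, lay inside the gene and more than 2000 bp from both gene boundaries in the table.

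Profiles around the start were drawn for the members whose windows are printed and for Hspa1b. At Hspe1, control H3K4me3 averaged 108 ± 12.4 at position -391 from the start (in bp, negative upstream) and 121 ± 6.61 at position 289, but 29.2 ± 7.08 at position -60 and 18 ± 7.29 at position 79 (SD, n = 3). The 3 summits from position -200 to position 79 formed a trough in the region between Hspd1 and Hspe1, and the printed heat shock elements lie in that trough. After defeat the summit at position 79 averaged 13.6 ± 7.57 in SDS10 and 15.1 ± 2.61 in SDS30 (SD, n = 5 each). Hspa5 peaked at 132 bp downstream, with means of 144 ± 12.98 in SDS10, 129 ± 11.8 in SDS30 and 140.3 ± 17.1 in control, and was at 95.8 ± 11.6 in control at 506 bp downstream. Hsph1, an exchange factor of Hsp70 in the Hsp110 family, averaged 112 ± 19.1 in SDS10, 104 ± 7.36 in SDS30 and 110.0 ± 5.11 in control at 257 bp downstream.

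Hspa1a and Hspa1b are neighbouring copies on chromosome 17, and their promoter windows were identical at 296 of 300 bases (98.7%). At 130 bp downstream of the start, Hspa1a averaged 65.7 ± 11.1 in SDS10, 72.2 ± 7.80 in SDS30 and 69.3 ± 4.86 in control, and Hspa1b 67.5 ± 9.85, 73.6 ± 8.79 and 63.3 ± 16.7 in the same groups. At 301 bp downstream both genes had almost no reads: Hspa1a averaged 0.164 ± 0.367 in SDS10, 1.05 ± 1.45 in SDS30 and 0.615 ± 0.578 in control, and Hspa1b 0.773 ± 0.768, 0.210 ± 0.470 and 0.382 ± 0.662. Hspa5, at 305 bp downstream, averaged 88.9 ± 14.7 in SDS10, 86.1 ± 6.57 in SDS30 and 100.2 ± 11.2 in control. How reads that match both copies were treated is not given in the sources used here, and its part in the low values was not tested, so the levels of both genes are uncertain. The strongest summit of Hspa1b lay at position -306, where the means were 98.0 ± 15.8 in SDS10, 93.4 ± 10.9 in SDS30 and 91.1 ± 20.7 in control.

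**Figure D2:**
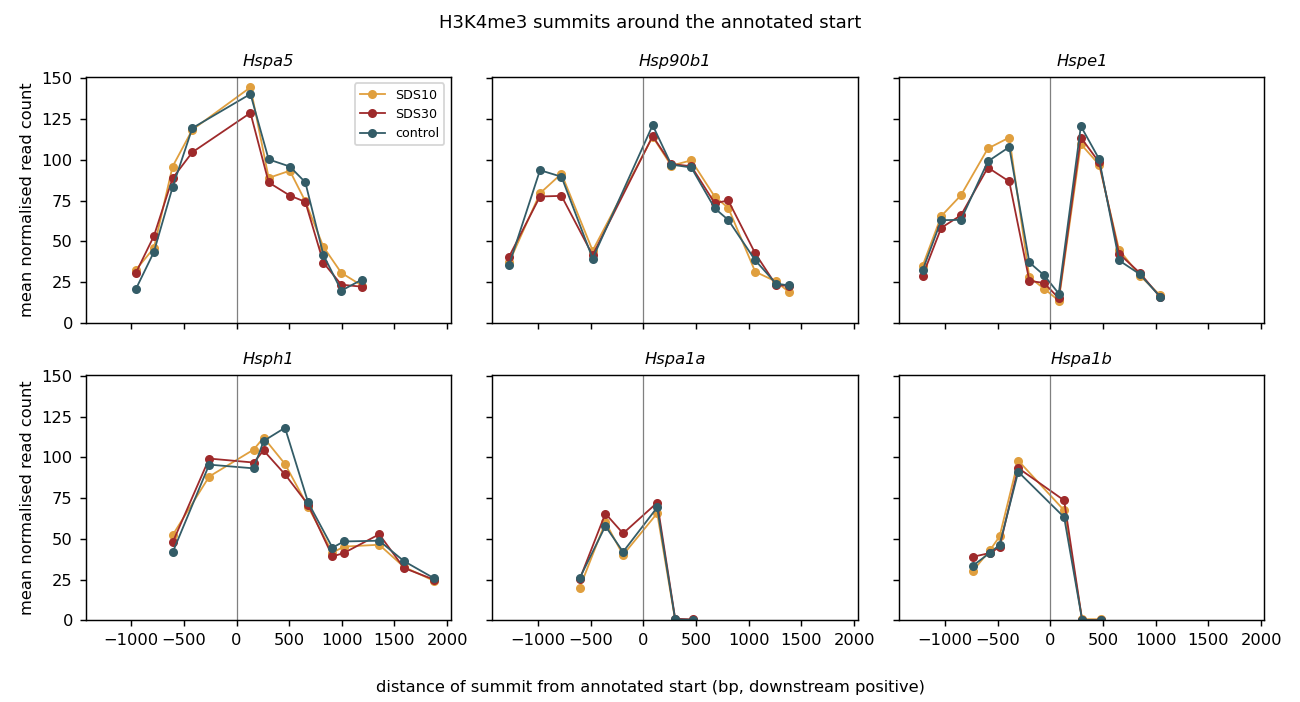
Mean normalised read count of each summit near the annotated start, in SDS10 (5 libraries), SDS30 (5 libraries) and control (3 libraries), plotted against the distance from the start in bp. The trough of Hspe1 at 79 bp and the near absence of reads at 301 bp in Hspa1a and Hspa1b appear in all 3 groups.

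The promoter windows of the members were rich in CpG dinucleotides, with a median of 25 in 300 bases against 15 over all coding genes with a window. The median was 13 in the 7 small heat shock genes. For any gene with several windows, the highest number among them was taken. Members with 20 or more CpG had a median control level of 122 (40 genes), and those with 10 to 19 had 95.7 (20 genes with a summit). The 3 with fewer than 10 and a summit had a median of 55.3, the level of Hspb7. Its summit lay 5026 bp downstream of its annotated start, outside the promoter window. The same bins over all coding genes gave 105, 99.5 and 58.8. Spearman's rho between CpG number and control level was 0.27 across 63 members and 0.28 across 12148 coding genes; these genes share the same 3 libraries and are not independent replicates. The 4 members with a heat shock element lay between 110.0 and 156 in control, with a median of 120.6. The 59 other members with a window and a summit lay between 28.4 and 155, with a median of 119.1. Hspd1 and Hspe1, both with the element, share their summit. Over all coding genes with a window and a summit, the median control level was 99.7 with the element and 99.8 without it.

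**Figure D3:**
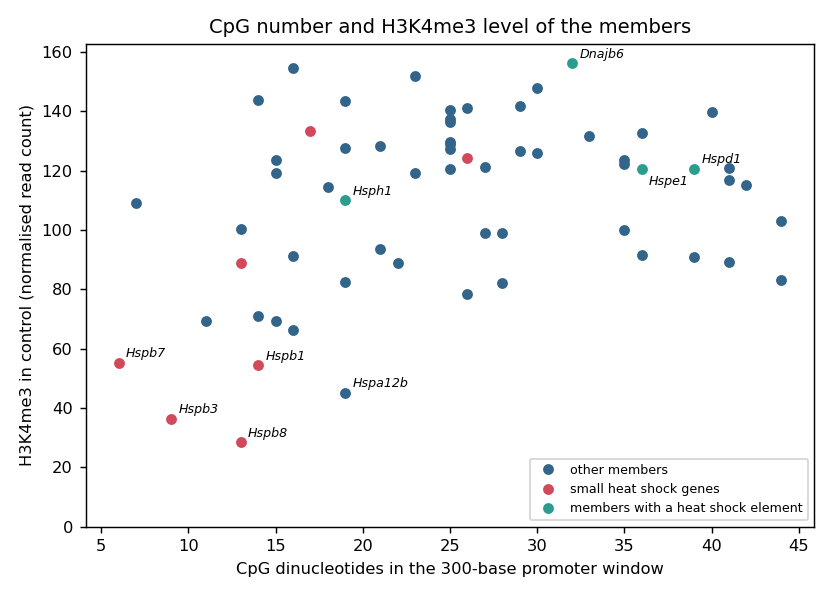
CpG dinucleotides in the 300-base promoter window against the control level in normalised read counts, 1 point per member; small heat shock genes are red and the 4 members with a heat shock element green. Of the 5 members below 60 that have a window, 4 are small heat shock genes with 6 to 14 CpG, and no member with 20 or more CpG lies below 78.5. The summit of Hspb7, with 6 CpG, lies 5026 bp from its annotated start. For a member with several windows, the highest CpG number is plotted.

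After 10 days of defeat no heat shock or chaperone gene passed the test for a change in H3K4me3 against control. In limma on log2(value + 1) over all summits, 0 of the 78 members and 0 of 152270 summits (0%) passed an adjusted p of 0.05; 4891 summits had an unadjusted p under 0.05 in limma, 4588 in edgeR and 5409 in DESeq2, and these 2 tools also called 0. Values of single members are given to show how far they moved and not as changes. Of the members, 48 had a log2 fold change above 0 and 30 below it, with a median of 0.03, beside a median of 0.01 and 53.3% above 0 over all coding genes; under loess offsets 40 members lay above 0 and 38 below it. With an unadjusted p under 0.05 there were 4 members (5.13%), 2 higher and 2 lower, where coding genes had 2.8% (1.78% higher and 1.03% lower) and all summits 3.21%. The median half-width of the 95% interval of a member was 0.32 on the log2 scale, so changes smaller than about that size were not resolved. The interval is not adjusted over the 152270 summits tested, so larger changes were not sure to pass either.

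By family, 7 of 8 Cct genes, 8 of 10 Dnajb genes, 3 of 4 Dnaja genes and 18 of 27 Dnajc genes had a log2 fold change above 0 in SDS10, and 9 of 14 Hsp70 and Hsp110 genes did; 6 of 8 small heat shock genes and both genes of the Hspd1 and Hspe1 pair lay below 0. Under loess offsets 7 Cct, 7 Dnajb, 2 Dnaja, 14 Dnajc and 7 Hsp70 and Hsp110 genes lay above 0. Without SDS10 replicate 2 and SDS30 replicate 2, the libraries in which members stood highest and lowest, 6 Cct, 7 Dnajb, 1 Dnaja, 14 Dnajc and 7 Hsp70 and Hsp110 genes did, and 39 of the 78 members in all. The members' median deviation from their own mean over all libraries was 0.14 in SDS10 replicate 2, where that of coding genes was 0.16, and -0.12 in SDS30 replicate 2, where that of coding genes was -0.15; the cause was not tested.

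The J-domain protein of the endoplasmic reticulum Dnajb11 had the smallest p among members that were higher in SDS10. Its values, at chr16:22857975-22857976, were 154, 193, 157, 158 and 167 in SDS10, against 128, 136 and 134 in control. All 5 SDS10 libraries lay above all 3 control libraries, with a log2 fold change of 0.31 ± 0.13 (SE), an unadjusted p of 0.0241 and an adjusted p of 0.99995 in limma. Only 1 member lay wholly above control and 1 wholly below it, where 1.65% and 1.22% of coding genes did (2.87% in both directions). The sum of all summits of Dnajb11 gave a log2 fold change of -0.02, and its strongest summit is also that of Tbccd1.

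The other members on the higher side overlapped with control. Hspa14, an Hsp70 that works at the ribosome, had 162, 124, 156, 146 and 159 in SDS10 and 154, 112 and 95.1 in control, and its log2 fold change of 0.33 ± 0.14 (SE) ranged between 0.17 without control replicate 3 and 0.52 without control replicate 1. Dnajc10, a reductase of the endoplasmic reticulum with a J domain, had 97.6, 144, 70.6, 89.8 and 78.1 in SDS10 and 83.8, 65.2 and 64.2 in control, and its log2 fold change of 0.39 ± 0.20 (SE) was 0.24 without SDS10 replicate 2. Control replicate 1 lay within the SDS10 range of both genes. Cct5, the epsilon subunit of the chaperonin, had 169.8, 154, 161, 181 and 169.9 in SDS10 and 154.4, 139 and 132 in control, with a log2 fold change of 0.24 ± 0.13 (SE). The groups met at 154, the lowest SDS10 and the highest control value. With the reads of all summits of a gene summed, which is another quantity, the log2 fold changes were 0.01 for Hspa14, 0.14 for Dnajc10 and 0.14 for Cct5.

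On the lower side, Hspb3, a small heat shock protein known from muscle, had 27.1, 25.4, 21.6, 27.1 and 25.2 in SDS10, against 32.8, 36.5 and 40.1 in control. All SDS10 libraries lay below all control libraries, with a log2 fold change of -0.51 ± 0.27 (SE), an unadjusted p of 0.0708 and an adjusted p of 0.99995 in limma. Dnajc8, a J-domain protein of the nucleus linked to splicing, had 137, 148, 97.0, 102 and 97.6 in SDS10 and 141, 162 and 128 in control, and its log2 fold change was -0.32 ± 0.15 (SE). Its SDS10 replicates 1 and 2 lay within the control range and the other 3 below it. Dnajc11, a mitochondrial J-domain protein, had 114, 98.8, 72.5, 88.1 and 90.3 in SDS10 and 107.6, 107.7 and 142 in control, and its log2 fold change of -0.36 ± 0.17 (SE) was -0.23 without control replicate 3. Dnajc22 averaged 37.5 ± 7.68 in SDS10 and 49.0 ± 8.62 in control (SD, n = 5 and 3), with overlapping groups. Summed over all summits of a gene, the log2 fold changes were -0.0088 for Hspb3, -0.04 for Dnajc8 and -0.18 for Dnajc11.

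**Figure D4:**
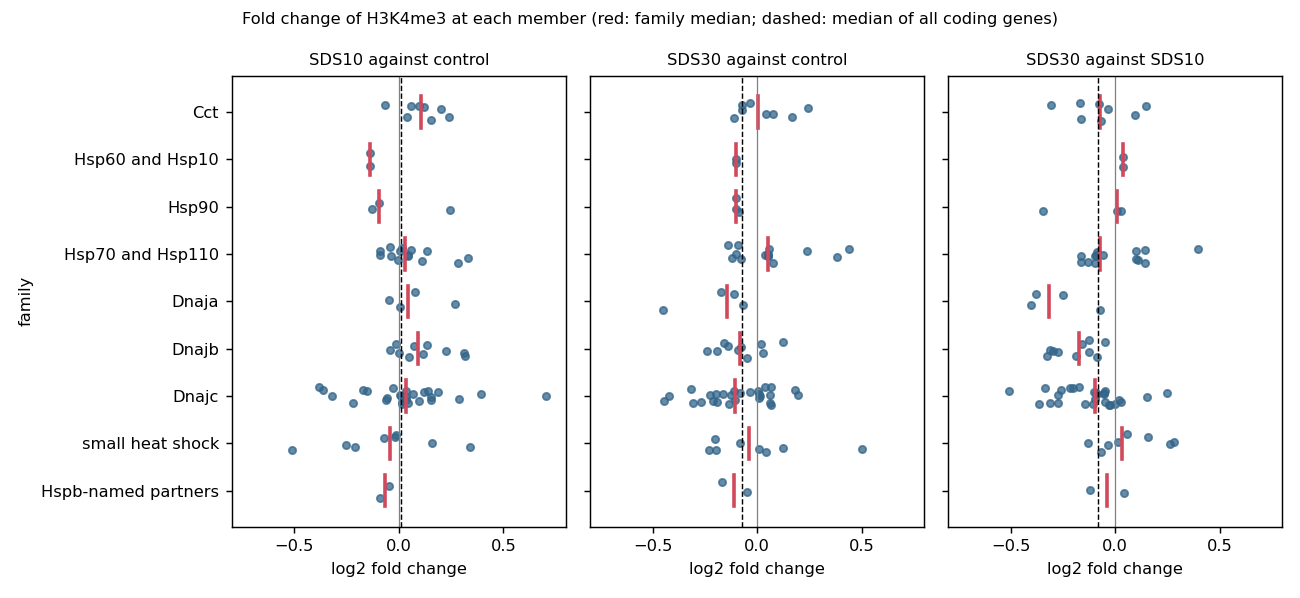
Log2 fold change of H3K4me3 at each member by family in the 3 comparisons, from limma on log2(value + 1); points are members, red bars family medians and dashed lines the median of all coding genes. The dashed lines lie at 0.01, -0.07 and -0.08, and all 10 Dnajb genes lie below 0 in the panel of SDS30 against SDS10.

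After 30 days of defeat again no member passed against control: 0 of 78 members and 0 of 152270 summits (0%) were called by limma, edgeR or DESeq2. Unadjusted p-values under 0.05 were found for 5194 summits in limma, 4932 in edgeR and 5749 in DESeq2. The members mostly lay slightly below control, 31 above 0 and 47 below it with a median log2 fold change of -0.08, and so did coding genes at large, with 34.1% above 0 and a median of -0.07. Loess offsets, a scaling that follows the level of a summit, turned the split to 43 members above 0 and 35 below it, with a median of 0.01. Coding genes of a like control level, between 89.5 and 128.8, had a median of -0.08. An unadjusted p under 0.05 was found for 4 members (5.13%), 1 higher and 3 lower, where coding genes had 4.91% (0.5% higher and 4.41% lower) and all summits 3.41%. This comparison shares its 3 control libraries with that of SDS10 against control, so the values of the comparisons are not independent.

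All 4 Dnaja genes and all 3 Hsp90 genes lay below 0 in SDS30 against control, and 1 of each lay above 0 under loess offsets. The Cct genes were split 4 and 4, and 7 of 8 lay above 0 under loess offsets. Of the Hsp70 and Hsp110 genes, 9 of 14 lay above 0, and 10 under loess offsets.

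Hspa13, an Hsp70-like ATPase of the endoplasmic reticulum, lay higher in SDS30, at chr16:75766507-75766508. Its values were 106, 108, 93.6, 95.8 and 87.7 in SDS30, against 79.7, 71.2 and 74.5 in control. No library overlapped between these groups, the log2 fold change was 0.38 ± 0.16 (SE), the unadjusted p 0.0222 and the adjusted p 0.99998 in limma. In SDS10 the same gene had 81.2, 91.8, 93.2, 117 and 78.9, of which all but replicate 5 lay above the highest control library. Leaving out 1 library at a time gave log2 fold changes between 0.34 and 0.42, but the sum of all summits of the gene gave 0.13. It was the only member wholly above control, where 0.585% of coding genes were.

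Dnajc9, a co-chaperone that binds histones H3 and H4 in human cells, lay lower in SDS30, at chr14:20388760-20388761. It had 85.4, 90.6, 118, 94.96 and 96.4 in SDS30, against 130.7, 131 and 127 in control. No library overlapped, the log2 fold change was -0.42 ± 0.15 (SE), the unadjusted p 0.0088 and the adjusted p 0.99998 in limma. Dnajc8 had 117, 106, 109, 128.3 and 119 in SDS30 and 141, 162 and 128.4 in control, and its log2 fold change was -0.30 ± 0.15 (SE). Its groups were parted only by the last digit shown, between SDS30 replicate 4 and control replicate 3. These 2 members lay wholly below control, as 3.11% of coding genes did (3.69% in both directions). The sum of all summits gave -0.215 for Dnajc9 and -0.06 for Dnajc8.

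Dnajc11 was again lower, with 86.1, 73.4, 122, 78.7 and 79.0 in SDS30 and 107.6, 107.7 and 142 in control, with a log2 fold change of -0.45 ± 0.17 (SE); SDS30 replicate 3 alone lay within the control range. Dnaja2, a cytosolic partner of Hspa8, had 84.6, 53.1, 74.7, 49.6 and 68.1 in SDS30 and 79.0, 99.0 and 89.4 in control, and its log2 fold change was -0.45 ± 0.20 (SE), and only SDS30 replicate 1 reached the control range. For Dnaja2 the sum of all summits gave -0.04. On the higher side, Hspa14 averaged 140.1 ± 13.1 in SDS30 and 121 ± 30.5 in control, Cct8, the theta subunit of the chaperonin, 118.5 ± 21.2 and 98.9 ± 6.74, and Hspa12b, a divergent Hsp70 of endothelial cells, 57.1 ± 12.6 and 45.2 ± 22.1 (SD, n = 5 and 3). All 3 overlapped between groups, and the log2 fold change of each moved when a single library was left out. The log2 fold change of Hspa14, 0.24, ran between 0.09 (control replicate 3 left out) and 0.43 (control replicate 1 left out); that of Cct8, 0.25, was 0.14 without SDS30 replicate 3; and that of Hspa12b, 0.44, lay between -0.0037 without control replicate 2 and 0.77 with control replicate 1 left out. The sums of all summits gave -0.04 for Hspa14, -0.10 for Cct8 and 0.26 for Hspa12b.

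Between 30 and 10 days of defeat the members lay lower after 30 days, as coding genes did, and none was called. In limma, edgeR and DESeq2, 0 of 78 members and 0 of 152270 summits (0%) passed, and 7795, 6857 and 7793 summits had an unadjusted p under 0.05 in these tools. Of the members, 22 lay above 0 and 56 below it, with a median of -0.09, beside 31.6% above 0 and a median of -0.08 over coding genes; under loess offsets 44 lay above 0 and 34 below it, with a median of 0.01. Without SDS30 replicate 2 and SDS10 replicate 2 the median was -0.02, with 31 members above 0. An unadjusted p under 0.05 was found for 8 members (10.3%), all lower in SDS30, where coding genes had 9.74% (0.704% higher and 9.03% lower) and all summits 5.12%. This comparison shares its SDS10 and SDS30 libraries with the comparisons against control.

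All 10 Dnajb genes and all 4 Dnaja genes lay below 0 in SDS30 against SDS10, with medians of -0.17 and -0.32, but under loess offsets 2 and 1 of them lay above 0, as they did without SDS30 replicate 2 and SDS10 replicate 2. Of the Dnajc genes, 23 of 27 lay below 0, and 12 under loess offsets. The Hspd1 and Hspe1 summit lay above 0 under each scaling run, but at -0.05 without SDS30 replicate 3 and as low as -0.11 among the other alternatives. Under each scaling run 2 of the 3 Hsp90 genes also lay above 0. In the main fit these were Hsp90aa1 at 0.03 and Hsp90b1 at 0.007, and their sign changed in 3 and 5 alternatives.

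Cct5 was the only member whose SDS30 libraries all lay below the SDS10 libraries, as 1.01% of coding genes did (1.12% in both directions), at chr15:31602258-31602259. It had 151, 105, 144, 138.6 and 139.8 in SDS30, against 169.8, 154, 161, 181 and 169.9 in SDS10. The log2 fold change was -0.31 ± 0.11 (SE), the unadjusted p 0.0092 and the adjusted p 0.963 in limma, and the fold change was -0.22 without SDS30 replicate 2, -0.17 under loess offsets and -0.18 with the sum of all summits. The control libraries, at 154.4, 139 and 132, lay within the SDS30 range except for replicate 1. Its summit is shared with Atpsckmt.

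Dnaja1, a farnesylated cytosolic partner of Hspa8, had 92.4, 62.5, 83.1, 89.0 and 102 in SDS30 and 129.6, 90.3, 118, 117 and 102 in SDS10, a log2 fold change of -0.38 ± 0.14 (SE). Dnajb9, a J-domain protein of the endoplasmic reticulum induced by its stress response, had 118, 89.0, 114, 91.5 and 104 in SDS30 and 127, 155, 131, 113.5 and 116 in SDS10, a log2 fold change of -0.31 ± 0.13 (SE). Hsp90ab1 had 79.1, 70.3, 77.8, 86.4 and 107 in SDS30 and 109, 113, 97.0, 120.3 and 92.7 in SDS10, a log2 fold change of -0.34 ± 0.14 (SE). In each of these 3 genes at least 1 SDS30 library lay within the SDS10 range, and the adjusted p was 0.963 in limma. The sums of all summits gave -0.16 for Dnaja1, -0.19 for Dnajb9 and -0.05 for Hsp90ab1, and loess offsets gave -0.20 for Dnajb9. On the higher side, Hspa12b averaged 57.1 ± 12.6 in SDS30 and 43.0 ± 8.37 in SDS10, Hspb7, a small heat shock protein of the heart, 54.4 ± 9.26 and 45.3 ± 8.04, Dnajc22 44.6 ± 6.89 and 37.5 ± 7.68, and Hspb3 31.98 ± 10.3 and 25.3 ± 2.22 (SD, n = 5 each). All 4 overlapped between groups. Single libraries moved the log2 fold change of each. That of Hspa12b, 0.40, was 0.28 without SDS30 replicate 3, and that of Hspb3, 0.28, was 0.12 without SDS30 replicate 4. Without SDS30 replicate 5, that of Hspb7, 0.26, was 0.17, and that of Dnajc22, 0.25, was 0.17. The sums of all summits gave 0.19 for Hspa12b, 0.04 for Hspb3 and 0.11 for Hspb7.

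**Figure D5:**
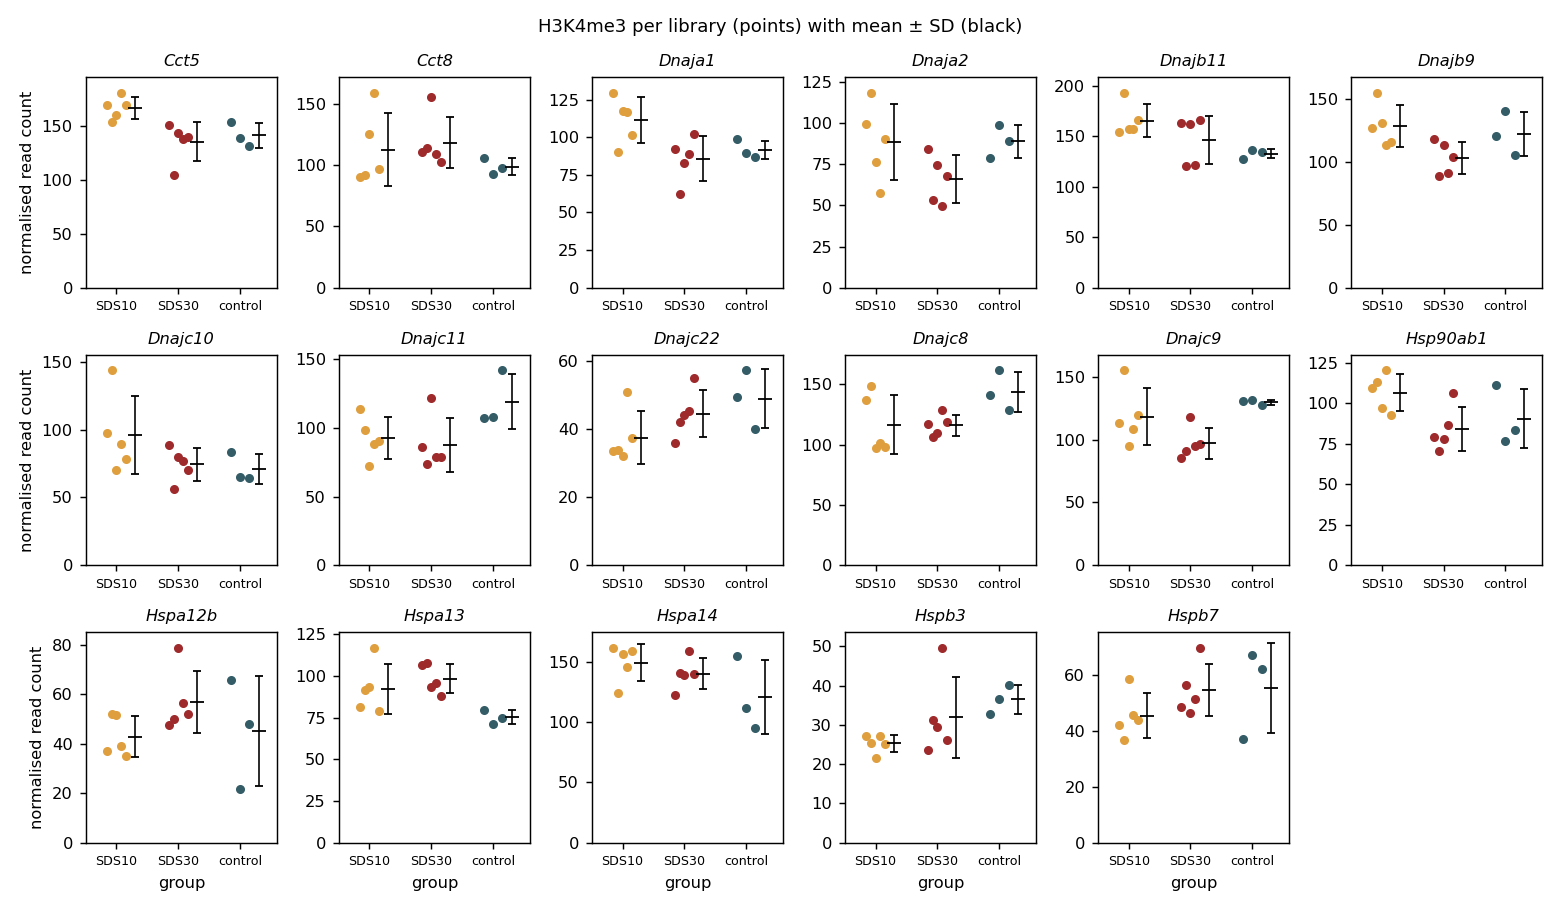
Normalised read count of the strongest summit in every library for the 17 members with the smallest p-values in either direction of a comparison; points are libraries and black marks the mean ± SD of each group. The SDS10 libraries of Dnajb11 and the SDS30 libraries of Hspa13 lie above all control libraries, and those of Dnajc9 in SDS30 lie below them, with adjusted p-values of at least 0.963 in limma for every member.

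The other genes of protein folding, a list of 67 regulators, co-chaperones, chaperonin partners and folding enzymes, was measured in the same way. Of these, 66 had a summit, and 0 were called in any of the 3 comparisons by limma. In SDS10 against control 45 lay above 0 and 21 below it, with a median log2 fold change of 0.07, and without SDS10 replicate 2 and SDS30 replicate 2, 33 lay on each side. In SDS30 against control 27 lay above 0 and 39 below it, with a median of -0.03, and under loess offsets 43 lay above 0. In SDS30 against SDS10 20 lay above 0 and 46 below it, with a median of -0.09, and under loess offsets 34 lay above 0. Hsf1, the factor that switches on inducible chaperones, averaged 183 ± 31.03 in SDS10, 162.5 ± 23.7 in SDS30 and 171 ± 16.1 in control, above the highest member mean in control, and Hsf2 averaged 87.3 ± 13.7, 76.5 ± 8.71 and 72.7 ± 4.32 in the same groups (SD, n = 5, 5 and 3). Hsf1 shares its summit with Bop1. Tcp1, the remaining subunit of the cytosolic chaperonin, averaged 149 ± 9.06 in SDS10, 136 ± 23.5 in SDS30 and 141 ± 34.5 in control.

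Among the partners of Hsp90 and Hsp70, Stub1, a ubiquitin ligase that marks chaperone clients, averaged 136 ± 10.5 in SDS10 and 107 ± 11.3 in control, and Bag3, the exchange factor that works with Hspb8, 86.5 ± 12.4 and 105 ± 15.01. Fkbp5, the Hsp90 partner that holds back the glucocorticoid receptor, averaged 94.5 ± 22.2 in SDS10, 72.0 ± 9.10 in SDS30 and 97.4 ± 20.6 in control (SD, n = 5, 5 and 3). Stip1, which links Hsp70 to Hsp90, averaged 106 ± 14.5 in SDS30 and 134 ± 9.48 in control, without overlap. P4hb, a disulphide isomerase of the endoplasmic reticulum, averaged 128 ± 15.7 in SDS10, 123.5 ± 15.1 in SDS30 and 159 ± 8.53 in control, and neither defeated group overlapped with control. Bbs12, a chaperonin-like gene, averaged 99.6 ± 8.75 in SDS30 and 133 ± 19.6 in SDS10, also without overlap. The summits of Stub1, Tcp1 and Bbs12 are shared with other coding genes (Jmjd8 and Rhbdl1, Mrpl18, Cetn4). Over the whole list, groups did not overlap for 2 genes that were higher and 2 that were lower in SDS10 against control, for 1 higher and 3 lower in SDS30 against control, and for 1 lower in SDS30 against SDS10. Of coding genes, 2.87%, 3.69% and 1.12% did not overlap in these comparisons. None of these passed, with adjusted p-values of at least 0.963 in limma.

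Reads on summits per library ranged from 4512817 in SDS10 replicate 4 to 10887911 in control replicate 1, and the libraries with the highest and the lowest members, SDS10 replicate 2 and SDS30 replicate 2, had 5677624 and 4750679. Summits were found at 5 of 5 markers of excitatory neurons and 3 of 3 of inhibitory neurons, and at 0 of 4 markers of tissues other than brain (Alb, Myh6, Ins2 and Krt5). Of 3 markers of microglia, Cx3cr1 and Csf1r had no summit. The summed level of the 5 excitatory markers ran from 252 to 371 in SDS10, 225 to 320.3 in SDS30 and 249 to 297 in control, and that of 3 markers of the neighbouring striatum from 125 to 259.7 in SDS10, 130.04 to 213 in SDS30 and 179 to 235 in control. Of the striatal sum, Ppp1r1b, whose summit is shared with Stard3, gave a mean of 131 in control. That of 4 astrocyte markers ran from 144 to 179.8 in SDS10, 108 to 156 in SDS30 and 129 to 147 in control; the part of these differences in the values of the members was not tested.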

How the data were processed

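The deposited table holds H3K4me3 signal as read counts per summit divided by a size factor of each library by the authors, with a score per peak that was not used for tests. The submitters' processing notes name Trimmomatic, Bowtie2, MACS2 and DESeq2 and the builds mm10 and GRCm38.p5, without versions. All values (100%) came out as whole reads within 0.001 once multiplied back by a factor; on these reads edgeR 4.0.16 and DESeq2 1.42.0 called 0 summits. The main test was limma 3.58.1 (R 4.3.3) with a variance trend on log2(value + 1) over 152270 summits, 937 with low counts left out, in 13 libraries by group, with Benjamini-Hochberg adjustment at 0.05; fold changes on this scale understate those of low summits. It was tried on simulated data only with changes larger than those seen at the members. The simulation therefore does not show how well changes of the members' size would be found. Alternatives were other scalings (TMM, total reads, loess), filters, pseudocounts, summit rules and left-out libraries; leaving out SDS10 replicate 2 and SDS30 replicate 2 together was chosen after seeing the data. The input library was not used. A gene took its strongest summit in its span and 2000 bp around it, in the table's coordinates. Named genes were the 4 members with the smallest p in each direction of each comparison, the 5 highest and 5 lowest in control, fixed well-known members, members with no or a shared summit, and the fixed and leading genes of the folding list; others are stated as singled out. The members and lists were chosen with earlier results of these data known. The labels give 1 batch date for all libraries.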

Additional observations from a re-analysis of the deposited data

Results flagged for a closer look

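There were 7 values of named members that stood apart from the other 4 libraries of their group, by a gap that was large against the range of the group. With 82 groups tested, chance flags about 1 in 20 groups. Cct5 had 104.7 in SDS30 replicate 2, where the other libraries of the group lay between 138.6 and 151. Dnajc11 had 122 in SDS30 replicate 3 (others 73.4 to 86.1), and in the same library Hspa12b had 78.9 (others 47.8 to 56.5) and Cct8 had 155.7 (others 103 to 114). Hspa9, the mitochondrial Hsp70, had 130 in SDS30 replicate 1 (others 89.8 to 95.6), and in that library Dnajc5b had 10.2 (others 13.7 to 14.1). Dnajc22 had 50.8 in SDS10 replicate 4 (others 32 to 37.4). Control groups of 3 were not tested in this way.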

How the results depend on the processing

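No member and no summit was called in any comparison under any alternative run: another scaling, filter, pseudocount or tool, 2 groups alone, the replicate block, or 1 library left out. The median log2 fold change of members in SDS30 against control, -0.08, was 0.0124 with loess offsets and -0.0136 with the sum of all summits; in SDS30 against SDS10, -0.09, it was 0.011 with loess offsets, where 44 and not 22 members lay above 0, and -0.0166 without SDS30 replicate 2 and SDS10 replicate 2, a setting chosen after seeing the data. The causes were not tested. The sum of all summits turned the sign of Dnajb11 in SDS10 against control (-0.0184) and of Hspa14 (-0.0367) and Cct8 (-0.101) in SDS30 against control. Leaving out 1 library at a time put Hspa12b in SDS30 against control between -0.0037 and 0.77. The median control level of members, 118, lay between 113.6 and 117.1 when 1 control library was left out, and was 574.9 with the sum of all summits, which is another quantity.

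The labels do not say whether replicate numbers pair the libraries. Correlations of same-numbered libraries ran from -0.29 to 0.37. They were not compared with those of differently numbered libraries, so they do not settle whether the libraries are paired. With the replicate block 0 summits were called. Unadjusted p-values under 0.05 in limma numbered 9431, 6634 and 5183 in SDS10 against control, SDS30 against control and SDS30 against SDS10. The main fit gave 4891, 5194 and 7795. The block was fitted only on libraries of the compared groups whose replicate number occurs in both. In the comparisons with control 3 libraries thus stood against 3. The counts therefore differ in libraries as well as in the block. With 3 control libraries, member intervals with a half-width of about 0.32 on the log2 scale, before adjustment over all summits, limit what could be resolved.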
